A study of Homo sapiens with 2 samples.

Results

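PVR, the nectins, ICAM1, VCAM1, CADM1, F11R and ALCAM encode cell-surface proteins of the immunoglobulin superfamily that hold cells to one another or to leukocytes. These 10 genes were listed by symbol, and every probe set that the platform's annotation table gives to one of them was taken. The table names 9 of the 10 genes, with 10 probe sets in all, among 14884 named genes, and F11R was not analysed here. The RNA was from A549, an established line of human lung adenocarcinoma cells, kept for 4 h either in a stretch culture system or in a static one. Each condition was measured on 1 Affymetrix array, so no value below has a replicate, and neither a test nor a p-value can be given. The labels name no altered gene and no agent besides stretch, and both arrays are of this 1 line. How and how strongly the cells were stretched, and the number of cultures behind each RNA are not given in the sources used here.

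Nectins and the related nectin-like molecules bind each other across cell contacts, like with like or in fixed partnerships, and nectins anchor to actin through the adaptor afadin. PVR (the poliovirus receptor, CD155) and NECTIN2 (CD112) are also read by lymphocytes: the receptor DNAM-1 (gene CD226) activates natural killer and T cells on binding them, while TIGIT and other receptors restrain these cells. ICAM1 and VCAM1 are bound by leukocyte integrins and are known as genes that TNF induces through NF-κB. CADM1 is a nectin-like adhesion molecule known as a tumour suppressor in lung cancer, and ALCAM binds itself and the lymphocyte protein CD6.

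Upstream sequences of 3 members are shown here: PVR and ICAM1, which were the 2 members past 1.5-fold, and VCAM1, the other member known as an NF-κB target. Each is the 250 bases before the annotated start, from RefSeq on GRCh38.p14, read on the gene's strand, which is the plus strand for all of them. PVR is at chr19:44643660-44643909, ICAM1 at chr19:10270870-10271119 and VCAM1 at chr1:100719492-100719741. Capitals mark matches on either strand to the letters GGAATG, the core bound by TEAD factors, to GGNNNTTCC, a κB-type pattern, and to TATAAA, the core of a TATA box.
PVR: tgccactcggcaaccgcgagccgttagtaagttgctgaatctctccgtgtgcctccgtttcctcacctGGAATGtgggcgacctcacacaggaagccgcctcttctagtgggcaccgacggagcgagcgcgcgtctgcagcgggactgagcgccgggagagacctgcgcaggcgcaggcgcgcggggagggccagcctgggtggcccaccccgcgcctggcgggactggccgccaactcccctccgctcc
ICAM1: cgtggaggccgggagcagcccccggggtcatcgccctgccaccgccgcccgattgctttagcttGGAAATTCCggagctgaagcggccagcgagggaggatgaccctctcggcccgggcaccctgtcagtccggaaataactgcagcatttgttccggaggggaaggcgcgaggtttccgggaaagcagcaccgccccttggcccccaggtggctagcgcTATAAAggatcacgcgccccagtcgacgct
VCAM1: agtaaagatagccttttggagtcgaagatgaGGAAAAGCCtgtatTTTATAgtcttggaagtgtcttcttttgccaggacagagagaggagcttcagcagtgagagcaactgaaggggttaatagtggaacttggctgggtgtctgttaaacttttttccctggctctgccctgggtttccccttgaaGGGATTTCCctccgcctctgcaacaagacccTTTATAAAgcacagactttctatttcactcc

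The PVR stretch holds 1 marked match, the letters GGAATG starting 182 bases before the start. The ICAM1 stretch holds the κB-type letters GGAAATTCC, which read as a match on both strands, 186 bases before the start, and a TATA-type match at 30 bases before it. In VCAM1 the κB-type pattern matched at 219 and at 62 bases before the start, the first of these on the opposite strand. TATA-type matches in VCAM1 began at 205, 31 and 29 bases before the start, the last 2 overlapping on opposite strands. The RefSeq promoter table covers 250 bases before to 50 after the start and holds 7 of the 10 members; CADM1, NECTIN1 and F11R are not in it. Within this 300-base window the κB-type pattern occurred in 4 of the 7 (ICAM1, VCAM1, PVR and NECTIN4), against 20.1% of all 35116 promoters in the table. In PVR it lay after the start, beginning 27 bases past it. GGAATG occurred in 1 of the 7, PVR, against 14% of all promoters, and TATAAA in 2 of the 7, ICAM1 and VCAM1, against 11.5%. The GC box GGGCGG occurred in 5 of the 7, all but PVR and VCAM1, against 45% of all promoters. The AP-1-type letters TGACTCA occurred in 0 of the 7, against 4.95% of all promoters. A match to such short letters describes the sequence and does not by itself show binding.

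The values are RMA signals on the log2 scale as deposited, and each difference is stretch minus static, so that a difference of 1 is a doubling. A gene was counted when at least 1 of its values was 2.52 or more, which is the median over both arrays, and 10981 named genes met this. As a guide to background, 17 measured genes of unrelated tissues, such as those for milk, sperm, enamel or brain proteins, had a 95th percentile of 4.71 over both arrays. Signals up to that value are called background range here. Without ZP3, the brightest of these genes, the bound was 4.14. Signals between 4.14 and 4.71, such as the static value of PVR (4.30), are in this range only when ZP3 is counted. RMA compresses low signals, so differences that start in the background range may be too small. Differences past 1.5-fold also occurred among the unrelated genes: GFAP had -0.72, MBP 0.63 and TNP1, under the level filter, -0.68. The other unrelated genes lay within 1.5-fold. A called difference at such signals can thus arise in genes of unrelated tissues. The SD of the difference between arrays over these 17 genes was 0.37, but 5 of them passed the level filter, so this is no scale of noise for bright genes. Named genes leaned upward on the stretched array: the median difference of the 10981 was 0.20, and it moved to 0.30 after centring on array medians, -0.01 after quantile normalization, 0.04 after loess on level and -0.02 after centring on 7 reference genes. Genes at least 1.5-fold higher made up 75.7% of all past 1.5-fold as deposited, 53.9% after quantile normalization, 60.3% after loess and 53.3% after centring on reference genes. As a check of the labelled cells, KRT18, a simple-epithelium keratin, read 11.0 on the stretched and 10.29 on the static array. EPCAM, the epithelial adhesion molecule, read 4.71 and 5.30 in the same order, and the 5 measured of 6 epithelial markers had a summed level of 11.2 on the stretched and 10.4 on the static array. KRT18 made up most of that sum. In the same order KRT7 read 7.56 and 5.41, KRT8 5.47 and 4.60, and KRT19 3.78 and 3.77, in the background range on both. Of 6 listed A549-expressed genes only KRT18 was measured. Of 5 endothelial markers 3 were measured (PECAM1, VWF and KDR), all in the background range on both arrays, and the 1 measured of 5 fibroblast markers, DCN, read 1.40 on the stretched and 1.29 on the static array. Of 6 leukocyte markers only CD14 and CD68 were measured, and their summed level on the log2 scale was 8.74 on the stretched and 7.76 on the static array. CD68 alone was 8.58 on the stretched and 7.51 on the static array, and CD14 5.53 and 5.13 in the same order. The part of these genes in the results below was not tested. The RNA is from bulk cells, so more cells with a transcript and more RNA per cell cannot be told apart.

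Within the adhesion genes, large differences stood in 2 genes and small ones of either sign in the others. Of the 8 members past the level filter, PVR and ICAM1 were at least 1.5-fold higher on the stretched array, 0 were lower by that much and 6 lay between. The same 2 also passed 2-fold. Among all 10981 genes, 27.7% were higher by 1.5-fold or more and 8.90% lower by as much. At 2-fold these shares were 12.3% higher and 2.50% lower. The members' 25.0% at or above 1.5-fold is therefore near the share of all genes. Their median difference was -0.17, against 0.20 for all genes, while their mean was 0.52 and so differed in sign from the median, because PVR and ICAM1 enter it. VCAM1 did not reach the level filter, and with it the median of all 9 was -0.10. NECTIN1 and CADM1 passed the filter through their static values alone. The sign of the median and its side of all genes depended on which members passed the filter. With the filter at 4.24, the upper quartile of all values, 5 members were left. Their median was 0.54, against 0.41 for all genes past it, and ICAM1 passed through its stretched value alone. With the filter at 4.71, 4 were left, with a median of 0.22 against 0.43 for all genes. There PVR passed through its stretched value alone.

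**Figure D1:**
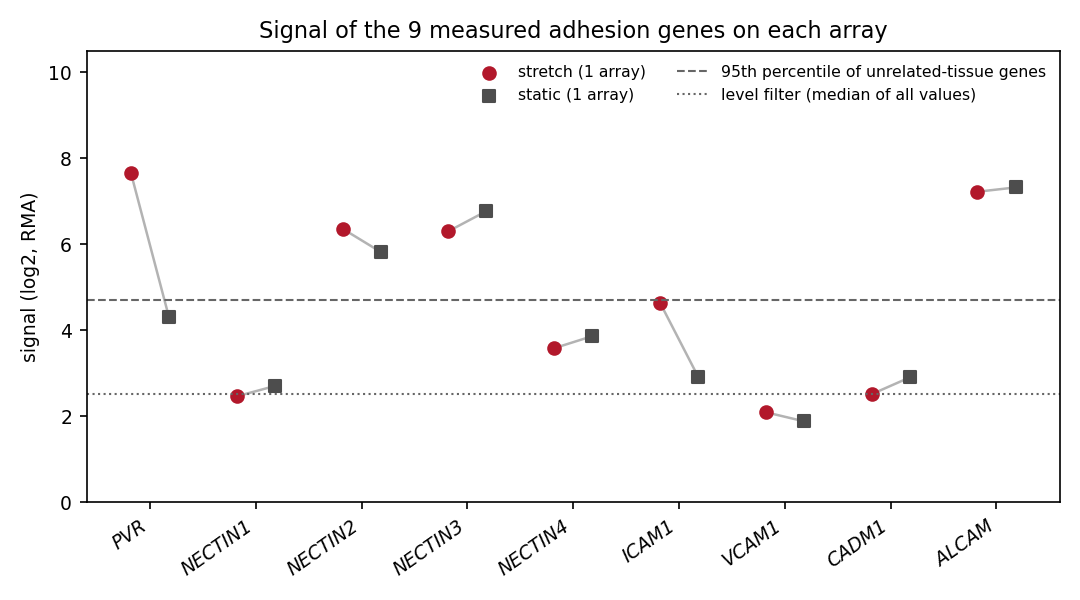
RMA signal (log2, vertical axis) of the 9 measured adhesion genes on the stretched array (red circles, left of each pair) and the static array (grey squares, right), 1 array each, with the background guide of 4.71 (dashed) and the level filter of 2.52 (dotted). PVR stands at 7.66 under stretch and 4.30 in static culture, and ICAM1 at 4.64 and 2.92, while the pairs of the other genes lie close together.

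PVR, the receptor that poliovirus uses and the ligand of DNAM-1 and TIGIT, had the largest difference of the members. Its probe set, annotated to the gene at chr19:44643910-44666162, read 7.66 on the stretched array and 4.30 on the static array. The difference was 3.36, a 10.3-fold higher signal under stretch. It ranked 6th from the highest of the 10981 genes. It was also the highest of the named genes in its level bin, the 8th of 10 equal bins of mean signal, in which differences had a median of 0.43 and an SD of 0.69. The static value lay in the background range, though above the bound of 4.14 found without ZP3, and the stretched value lay above the range. On its own array the probe set stood at the 95.3rd percentile of the 53617 probe sets under stretch and at the 77.1st in static culture. The gene has 1 named probe set, so no second probe set checks the value, and the array does not separate the membrane-bound from the secreted forms of PVR.

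The genes whose pair of values lay nearest to that of PVR, by distance over both arrays, were ELOF1 (a distance of 0.49), MIR4521 (0.50), CCN2 (0.50) and RRN3 (0.51). CCN2, encoding a matricellular growth factor and known as a target of the co-activator YAP, read 8.11 on the stretched and 4.52 on the static array. ELOF1, a factor of transcription elongation, read 7.18 on the stretched and 4.23 on the static array. With 2 arrays such likeness rests on 2 values per gene.

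The nectins had smaller differences than PVR. NECTIN2, the other ligand of DNAM-1 among these genes, lies at chr19:44846297-44889223, beginning 180135 bases past the end of PVR. It read 6.36 on the stretched and 5.82 on the static array, a difference of 0.54, 1.45-fold. This was just under the 1.5-fold mark and near the median of its level bin, 0.43, and 42.9% of genes in that bin had a difference at least as high. NECTIN3, a preferred partner of other nectins across contacts, lies at chr3:111071816-111194170. It read 6.30 on the stretched and 6.77 on the static array, a difference of -0.47, with the signal 1.39-fold higher in static culture. In its level bin, whose median was 0.41, only 6.28% of genes had a difference as low or lower.

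NECTIN1, the receptor through which herpes simplex virus enters epithelial cells, lies at chr11:119638098-119729200. It read 2.46 on the stretched and 2.70 on the static array, a difference of -0.24. NECTIN4, known as the target of the antibody-drug conjugate enfortumab vedotin, lies at chr1:161070998-161089558. It read 3.58 on the stretched and 3.86 on the static array, a difference of -0.28. Both genes lay in the background range on both arrays, where a difference in RNA may not show. Of the 4 nectins, NECTIN2 thus had a positive difference as deposited, and NECTIN1, NECTIN3 and NECTIN4 had negative ones.

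**Figure D2:**
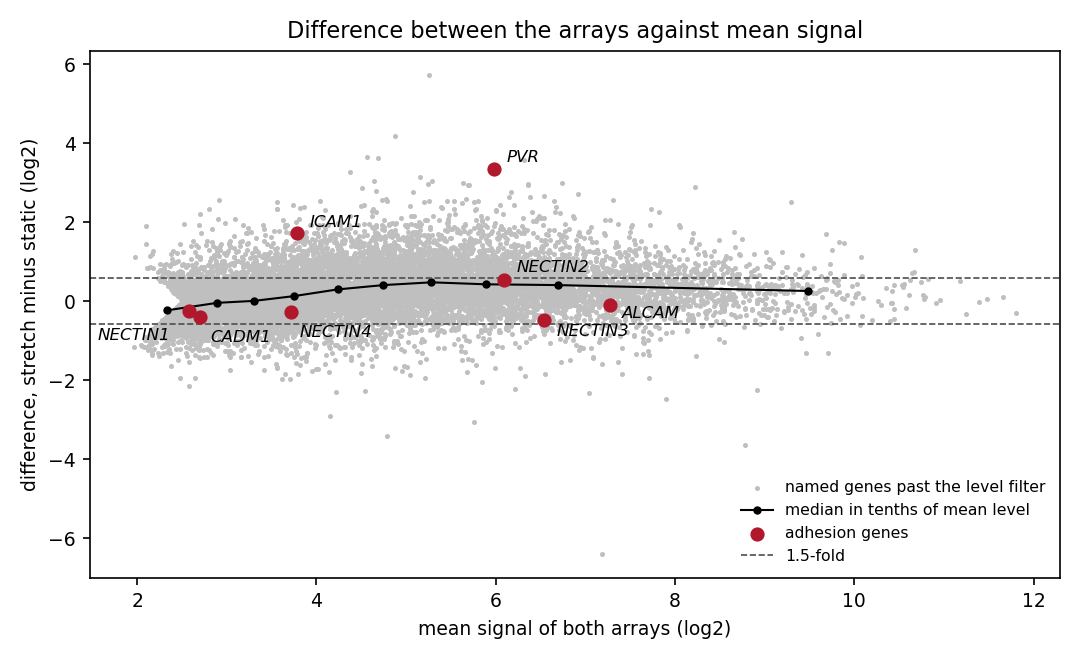
Difference between the arrays (stretch minus static, log2, vertical axis) against the mean signal of both arrays (log2, horizontal axis) for the 10981 named genes past the level filter (grey), with the 8 adhesion genes past it (red) and the median of each of 10 level bins (black). PVR at 3.36 and ICAM1 at 1.72 lie above the 1.5-fold lines (dashed), and the other 6 between them.

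ICAM1, the ligand of leukocyte integrins and of the major group of rhinoviruses, was the other member with a large difference. Its probe set, annotated to the gene at chr19:10271120-10286615, read 4.64 on the stretched and 2.92 on the static array. The difference was 1.72, a 3.29-fold higher signal under stretch, and ranked 253rd from the highest of the 10981 genes. In its level bin, the 4th of 10, the median difference was 0.13 and 1.90% of genes had one at least as high. Both values lay in the background range, the stretched one just under its upper end of 4.71. That end depends on the gene ZP3, the brightest of the unrelated genes, and without it was 4.14, below the stretched value. Its nearest genes by the same distance were SND1-IT1 (0.03), RNF185 (0.05), ZHX2 (0.11) and RGL2 (0.12).

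VCAM1, the ligand of the integrin α4β1 and, like ICAM1, a gene that TNF induces in endothelium, lies at chr1:100719742-100739045. It read 2.09 on the stretched and 1.88 on the static array, a difference of 0.21, with both values under the level filter. At such a signal the array can neither show a change in VCAM1 nor its absence.

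CADM1 and ALCAM complete the measured members. CADM1, at chr11:115169236-115504415, has 2 probe sets. The brighter read 2.51 on the stretched and 2.90 on the static array, a difference of -0.39, and the dimmer read 1.39 and 1.44 in the same order, a difference of -0.05. Both probe sets lay in the background range on both arrays, and the brighter one passed the level filter through its static value. ALCAM, at chr3:105366909-105576900, was well above the background range, at 7.22 on the stretched and 7.32 on the static array. Its difference of -0.10 lay below the median of its level bin, 0.26, and 24.6% of the genes in that bin had one as low or lower.

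Since the scaling of the 2 arrays to each other is unknown, each member was also computed under 4 other scalings. PVR lay between 3.0 (loess) and 3.46 (median centring) under these, and ICAM1 between 1.5 (reference genes) and 1.82 (median centring). The 6 members that lay between the 1.5-fold marks as deposited were less firm. NECTIN2 reached 0.64 after median centring and stood at 0.11 after quantile normalization. NECTIN3 was past 1.5-fold lower in 3 of the 4 scalings, at -0.85 after quantile normalization, -0.82 after loess and -0.69 on reference genes. CADM1 was also past it on reference genes, at -0.61. ALCAM lay between -0.42 and 0.00, and VCAM1 between -0.01 and 0.37.

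**Figure D3:**
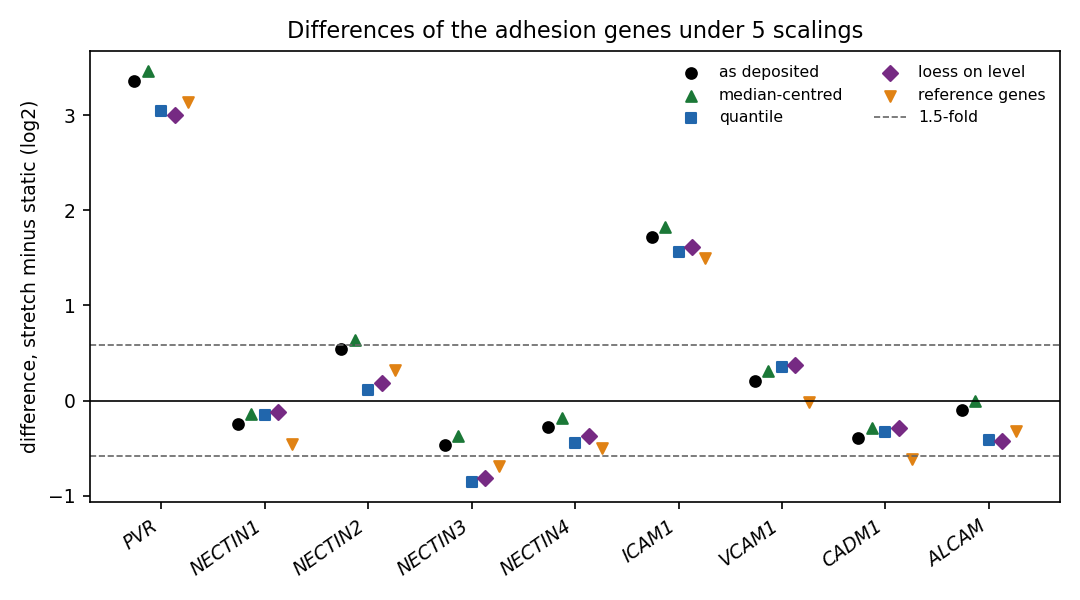
Differences of the 9 measured adhesion genes (stretch minus static, log2, vertical axis) as deposited and under 4 other scalings of the arrays (symbols), with dashed lines at 1.5-fold. PVR stays at or above 3.0 and ICAM1 at or above 1.5 in all 5, while NECTIN2, NECTIN3 and CADM1 cross a 1.5-fold line under at least 1 of them.

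The genes that act around these molecules were counted from lists. Natural killer cell ligands are proteins that, like PVR, are read by receptors of natural killer cells. Of 16 listed, 10 were measured and 8 passed the level filter, of which 5 (62.5%, against 27.7% of all genes) were at least 1.5-fold higher, 0 lower and 3 between. The median difference was 0.75, against 0.20 for all genes. ULBP1 passed the filter through its stretched value alone, and RAET1L, the 1 measured gene lower by 1.5-fold or more (-0.59), did not pass it. Without the filter 5 of 10 were higher and 1 lower, with a median of 0.41, against 20.7% of all genes higher and a median of 0.06. After loess, and also on reference genes, 4 of the 8 were higher and 1 lower. Of all genes, 18.5% were higher under both scalings, and 12.2% (loess) and 16.2% (reference genes) were lower. NCR3LG1, the ligand of the receptor NKp30 known as B7-H6, read 5.56 on the stretched and 3.71 on the static array, a difference of 1.85. ULBP1, a ligand of the receptor NKG2D, read 4.16 on the stretched and 2.31 on the static array, also 1.85, and ULBP3 had a difference of 1.09. RAET1E, another NKG2D ligand, had a difference of 0.83. Both values of ULBP1 and RAET1E and the static values of NCR3LG1 and ULBP3 lay in the background range. Checkpoint ligands, which restrain or tune T cells, had 7 of 12 measured genes past the filter, with a median of 0.03. Of these, 2 were higher (28.6%, near the 27.7% of all genes) and 1 lower (14.3%, against 8.90% of all genes). CD276 (B7-H3) had a difference of 0.94, VSIR (VISTA) 0.89, FGL1 0.28 and VTCN1 (B7-H4) -0.83, all but the stretched value of CD276 in the background range. VTCN1, the 1 lower gene, passed the filter through its static value alone.

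The receptors that bind the members on other cells were near background. Of 6 listed lymphocyte receptors, not all of which bind PVR or a nectin, 5 were measured and 2 passed the filter. TIGIT, the inhibitory receptor of PVR on lymphocytes, read 1.77 on the stretched and 2.86 on the static array (-1.09), with both values in the background range. It passed the filter through its static value alone. PVRIG, an inhibitory receptor of NECTIN2, had a difference of 0.21, also within it. CD226, CD96 and CRTAM did not reach the filter. Of 9 listed integrins and other partners of ICAM1, VCAM1 and ALCAM, CD6 alone was measured and did not reach it, and of 9 classical cadherins, 0 were named.

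Other immunoglobulin adhesion molecules had differences of both signs. Of 49 listed, 37 were measured and 28 passed the filter, with 6 at least 1.5-fold higher (21.4%, against 27.7% of all genes), 4 lower (14.3%, against 8.90%) and 18 between, and the median was -0.01. The balance of calls turned with the scaling, with 2 higher and 6 lower after loess and 2 higher and 8 lower on reference genes. All genes also shifted towards fewer higher and more lower, but their balance did not turn. Of all genes 18.5% were higher under both scalings, and 12.2% (loess) and 16.2% (reference genes) were lower. CEACAM5, the carcinoembryonic antigen, read 4.78 on the stretched and 6.57 on the static array, a difference of -1.79. CADM3, a neuronal relative of CADM1, read 3.71 on the stretched and 5.31 on the static array (-1.60), and CEACAM1 read 4.27 and 5.23 in the same order (-0.96). The stretched values of CADM3 and CEACAM1 lay in the background range. VSIG10 was higher by 1.11, within the background range on both arrays.

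Scaffolds and linkers tie junction molecules to actin. Of 37 listed, 18 were measured and 17 passed the filter, with 10 at least 1.5-fold higher (58.8%, against 27.7% of all genes), 0 lower and 7 between, and a median of 0.67. After loess 6 of the 17 were higher, with a median of 0.33, against 18.5% of all genes and a median of 0.04. AJUBA, a LIM protein of cell junctions, read 6.07 on the stretched and 3.48 on the static array, a difference of 2.59. SYNPO (synaptopodin) had a difference of 1.98, VCL (vinculin) 1.87 and LMO7, a protein that binds afadin, 1.29. The static values of AJUBA and SYNPO lay in the background range. Chosen after their values were seen, the 3 ERM genes, whose proteins join ICAM1 and VCAM1 to actin, had differences of 1.26 (EZR), 0.85 (MSN) and 0.67 (RDX). Afadin itself (AFDN) was not analysed here.

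Proteases that cut adhesion molecules from the surface, with their regulators, had all 16 measured genes of 17 listed past the filter. Of these, 9 were at least 1.5-fold higher (56.3%, against 27.7% of all genes), 2 lower (12.5%, against 8.90%) and 5 between, and the median was 0.61. After loess 3 of the 16 were higher, a share close to the 18.5% of all genes under that scaling, with a median of 0.32 against 0.04. On reference genes 6 of the 16 were higher, also against 18.5% of all genes. The size of the higher share thus depended on the scaling. TSPAN14, a tetraspanin that escorts the protease ADAM10, read 8.25 on the stretched and 6.19 on the static array, a difference of 2.06. RHBDF2, which escorts ADAM17, had a difference of 1.2 and TSPAN5 one of 0.97. TIMP3, an inhibitor of these proteases, had a difference of -1.40. TSPAN5 and TIMP3 lay in the background range on both arrays. TSPAN5 passed the filter through its stretched value alone, and TIMP3 through its static value alone. Chosen after their values were seen, ADAM10 had a difference of 0.01, at 8.48 on the stretched and 8.47 on the static array, and ADAM17, which sheds ALCAM, one of 0.83, at 8.12 on the stretched and 7.29 on the static array.

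NF-κB genes, known to act upstream of ICAM1 and VCAM1, had 10 measured genes of 16 listed, all past the filter. Of these, 6 were at least 1.5-fold higher (60.0%, against 27.7% of all genes), 1 lower and 3 between, with a median of 0.76. Of all genes, 8.90% were lower by as much. The 1 lower gene of the list, BCL3, was chosen for naming after its value was seen. It read 5.65 on the stretched and 6.44 on the static array (-0.79), above the background range on both. After loess 4 of the 10 were higher, with a median of 0.41, against 18.5% of all genes and a median of 0.04. MAP3K14, the NF-κB-inducing kinase, had a difference of 3.05, NFKB2 of 2.41, NFKB1 of 1.25 and IRF1 of 0.93, all but NFKB1 from a static value in the background range. TNF read 3.27 on the stretched and 3.46 on the static array (-0.19), with both values in the background range.

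**Figure D4:**
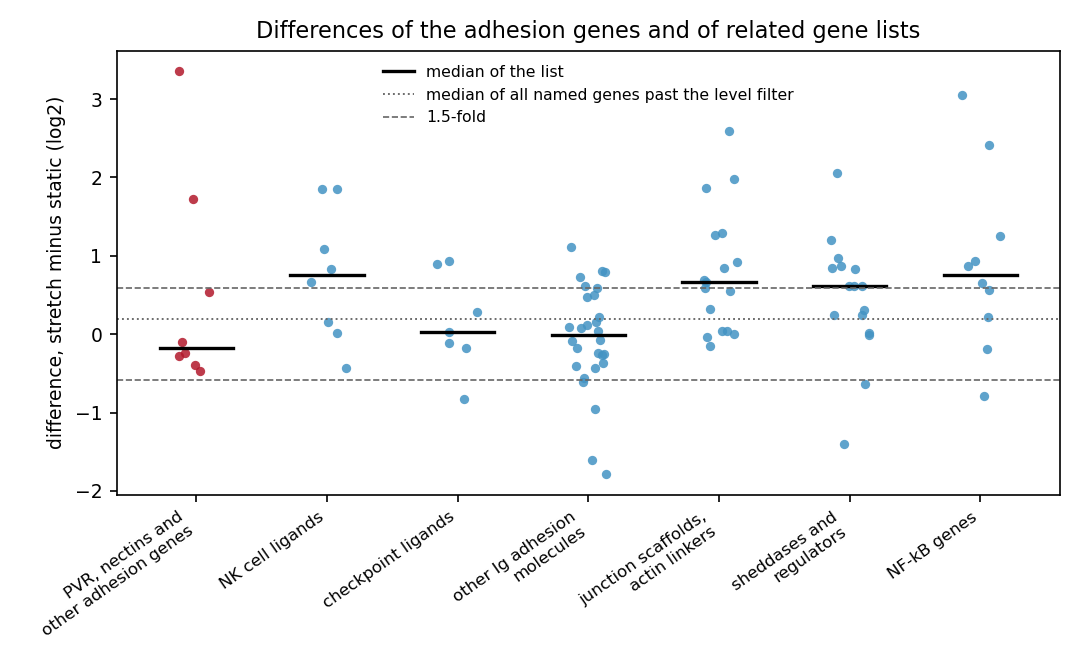
Differences (stretch minus static, log2, vertical axis) of each gene past the level filter in the adhesion genes (red) and in 6 related lists (blue), with the median of each list (black bars), the median of all named genes past the filter at 0.20 (dotted) and 1.5-fold (dashed). The medians of natural killer cell ligands (0.75), junction scaffolds (0.67), sheddases (0.61) and NF-κB genes (0.76) lie above the dotted line, and that of the adhesion genes (-0.17) below it. The dotted line is not matched to the lists for signal, and all genes past a filter of 4.24 had a median of 0.41. The placement of the adhesion genes turns with the filter at 4.24, where 5 members had a median of 0.54 against 0.41 for all genes. ICAM1 passes that filter through its stretched value alone. With the filter at 4.71 the placement turns back, at 0.22 for 4 members against 0.43 for all genes.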

How the data were processed

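RNA from A549 cells after 4 h of stretch or static culture was hybridised to 1 array each, and samples were grouped by source name (1 title, for stretch, has the line's last digits swapped). The deposited values are log2 signals that the authors made with RMA (robust multi-array average: background correction, quantile normalization and summary per probe set), per the submitters' processing notes; which program and chip definition were used is not given in the sources used here. Values, between 0.60 and 12.7, fit a log2 scale. Sorted values of the arrays differed by up to 0.45, with medians of 2.47 (stretch) and 2.57 (static), so how the arrays were scaled to each other is unknown. The number of arrays limits the precision.

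Probe sets were named through the platform annotation (16098 of 53617 have 1 symbol each, and the other probe sets are unnamed here), and symbols were checked by gene identifier against RefSeq for GRCh38.p14. The brightest probe set stood for a gene. The level filter was 2.52. Fold marks were 1.5 and 2. Members and lists were chosen with earlier results of these data known. Named list genes are up to 4 per list with the largest absolute difference past the filter, with TNF always given, and the 4 nearest genes to PVR and to ICAM1. Genes marked as chosen after their values were seen, such as BCL3, are named in addition. Alternatives tried were further filters on level, averaging a gene's probe sets, 4 scalings (loess span 0.3), the fold mark and the mean. The difference and scaling steps were tested on simulated data. Planned protein identities were not computed. Python 3.11.15, numpy 2.4.6, pandas 2.3.3, statsmodels 0.14.6 and matplotlib 3.10.9 were used.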

Additional observations from a re-analysis of the deposited data

How the results depend on the processing

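The number of adhesion genes at least 1.5-fold higher was 2 as deposited, and 1 (PVR) with the level filter at the 95th percentile of unrelated-tissue genes, where ICAM1 drops out by construction. It was 3 after median centring, which adds NECTIN2, and 2 under the other alternatives. The number lower was 0 as deposited, 1 (NECTIN3) after quantile normalization and after loess, and 2 (NECTIN3 and CADM1) on reference genes. The median of -0.17 was 0.54 when the filter was the upper quartile of all values, 0.22 at the 95th percentile of unrelated-tissue genes and 0.54 at that percentile without ZP3, an alternative chosen after seeing the data. These filters leave 4 or 5 members, and the medians of all genes under them were 0.41, 0.43 and 0.40 in the same order. Where 5 were left, ICAM1 passed through its stretched value alone, and where 4 were left, PVR did. The mean over members was 0.52. Among the lists, the count at least 1.5-fold higher of other immunoglobulin adhesion molecules was 2 after loess and 2 on reference genes, against 6 as deposited, while the count lower was 6 and 8, against 4. After loess the count higher was 6 for junction scaffolds, against 10, and 3 for sheddases and their regulators, against 9. On reference genes it was 7 for junction scaffolds and 6 for sheddases and their regulators. Over all genes the share at least 1.5-fold higher was 18.5% after loess and on reference genes, against 27.7% as deposited. It was 32.9% after median centring and 16.5% after quantile normalization. The share lower was 14.1% after quantile normalization, 12.2% after loess and 16.2% on reference genes, against 8.90% as deposited. No called difference of PVR or ICAM1 changed sign under the alternatives run. Signal near background limits ICAM1, VCAM1, NECTIN1, NECTIN4 and CADM1. No paired analysis was possible because each condition has 1 array.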
